A study of Gallus gallus with 6 samples.

Results

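BMP ligands and their antagonists were examined in chick forelimb bud tissue exposed to fibroblast growth factor 2 (FGF2). The set held 10 genes of the 13009 genes with a single symbol on the array, chosen by name. There were 4 ligands (BMP2, BMP4, BMP5 and BMP7) and 6 antagonists (GREM1, NOG, CHRD, BAMBI, BMPER and FST). All probe sets carrying exactly 1 of these symbols were taken, which gave 19 probe sets, 12 for the ligands and 7 for the antagonists. Heparin acrylic beads carried recombinant human FGF2 or, for the controls, phosphate-buffered saline (PBS), and were implanted in the posterior forelimb mesoderm of Hamburger-Hamilton stage 23 chicken embryos, about 500 µm from the distal tip. Tissue around the bead was taken after 24 h, at stage 25, and its RNA was hybridized to single-color Affymetrix chicken arrays. There were 3 FGF2 arrays and 3 PBS arrays. The RNA of several embryos was pooled for an array, so the spread between arrays is a spread between pools, and in such mixed tissue a change in the number of cells of a type and a change in RNA per cell cannot be told apart.

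Bone morphogenetic proteins (BMPs) are secreted ligands that bind paired type I and type II serine/threonine kinase receptors, which phosphorylate SMAD transcription factors. Secreted antagonists such as Gremlin, Noggin and Chordin bind the ligands outside the cell, and the range of a BMP signal is set largely by where these proteins are made. In the limb bud, BMPs limit the apical ectodermal ridge and promote cell death between the digits and cartilage formation. Gremlin, which is maintained by Sonic hedgehog (SHH), shields the ridge from BMPs and so links SHH to the FGFs that the ridge secretes.

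No probe set of these genes passed an adjusted p of 0.05 in the limma fit (0 of 19), where 0.0104% of all 38439 tested probe sets did. At an unadjusted p under 0.05 there were 6 of 19, or 31.6%, against 8.93% of all tested probe sets. Of these 5 were higher in FGF2 tissue, against 5.6% of all, and 1 was lower, against 3.33% of all. In 10 of 19 the values of the 2 groups were fully separate, against 12.4% of all, with 6 higher in FGF2 tissue, against 6.53% of all, and 4 lower, against 5.84% of all. The FGF2 mean was the higher in 9 of 19, against 34.9% of all. These shares take in dim probe sets, whereas 11 of the 19 members were brighter than the median. The median log2 fold change was -0.021 over all probe sets and 0.029 over the brighter ones. In the fit to the 19219 brighter probe sets 2687 were under an unadjusted p of 0.05, among them 5 of the 11 members. Probe sets of a gene share its transcript and are not independent. Counted by gene, with each gene given by its brightest probe set, 3 of 10 were under an unadjusted p of 0.05, against 12.4% of all genes, and all 3 were higher in FGF2 tissue, against 7.77% of all genes that were higher and 4.59% that were lower at this threshold. By adjusted p it was 0 of 10, against 0.00769% of all genes. The groups were separate for 5 of 10 genes, against 16.0% of all genes, and the FGF2 mean was the higher for 6 of 10, against 45.6%. The 746 probe sets not named after a chicken sequence cluster served as a background, with a 95th percentile of 3.566 on the log2 scale. On every array 5 of the 19 member probe sets were under this level, all of them further probe sets of ligand genes. Among them were a BMP2 and a BMP4 probe set counted as separate above, with log2 fold changes of 0.25 and -0.034. Mesenchymal markers were bright, with PRRX1, a homeobox gene of limb mesenchyme, averaging 13.26 in FGF2 tissue and 13.16 in PBS tissue. Of 6 such markers 4 were higher in FGF2 tissue, against 45.6% of all genes, and 2 lower. At an unadjusted p under 0.05 HOXA11 was higher (log2 fold change 0.54), against 7.77% of all genes. TWIST2 was lower at this threshold (log2 fold change -0.42), against 4.59%. FGF8, the FGF of the apical ridge, stayed at 2.84 to 3.18 in FGF2 tissue and 3.15 to 3.24 in PBS tissue, under the background level, whereas EPCAM, an epithelial adhesion molecule, was bright on every array.

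BMP7 gave the largest difference among the ligands. BMP7 (Entrez Gene 395494) is a ligand made in limb mesenchyme and in the apical ridge. Its brightest probe set measured 12.22, 12.4 and 12.01 on the FGF2 arrays, against 11.0, 11.29 and 10.94 on the PBS arrays. All FGF2 values lay above all PBS values, and the nearest values of the 2 groups were FGF2 replicate 3 and PBS replicate 2. BMP7 was 2.19-fold higher in FGF2 tissue, with a 95% interval of 1.72 to 2.79 (log2 fold change 1.13 ± 0.138 SE; limma, adjusted p = 0.171). A second probe set built on the same source sequence gave 8.39, 8.78 and 8.23 in FGF2 tissue and 6.87, 7.17 and 7.08 in PBS tissue, a difference of 2.69-fold (limma, adjusted p = 0.165). The third, from another transcript record, gave 6.51, 6.56 and 6.32 against 5.93, 6.37 and 6.29, so that its groups overlapped, and its log2 fold change was 0.27 (limma, adjusted p = 0.644). The first BMP7 probe set belongs to the class designed to match several transcripts of a gene and the second to the class that can match different genes. With both classes left out BMP7 was thus represented by the third alone. With an intensity trend in the variance and robust fitting 3 of the 19 member probe sets passed an adjusted p of 0.05, both of these BMP7 probe sets and that of BAMBI, against 0.101% of all, and with only the probe sets brighter than the median the count was again 3, against 0.208% of those tested. In the first setting the brightest BMP7 probe set came to an adjusted p of 0.0316, and over the alternatives the adjusted p of BMP7 ran between 0.0316 and 0.614.

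BMP2 differed by less but was the tightest of the ligands. BMP2 (Entrez Gene 378779), a close relative of BMP4, is a ligand expressed in the posterior mesenchyme and the ridge of the chick wing bud. Its brightest probe set measured 11.73, 11.73 and 11.65 on the FGF2 arrays and 11.38, 11.41 and 11.34 on the PBS arrays. The groups were separated by more than the range within either group. The difference was 1.25-fold, with a 95% interval of 1.18 to 1.33 (log2 fold change 0.32 ± 0.0347 SE; limma, adjusted p = 0.147), and BMP2 ranked at 43 of 38439 by its p, ahead of the BMP7 probe sets at 53 and 69. With the intensity trend in the variance and robust fitting this order was reversed (limma, unadjusted p = 0.000505 for BMP2, 2.27e-05 and 1.23e-05 for BMP7). It was also reversed with only the brighter probe sets, with the replicate number as a block, with median centring and with the mean of each gene's probe sets. A BMP7 probe set also came ahead of BMP2 without PBS replicate 1, PBS replicate 2, FGF2 replicate 2 or FGF2 replicate 3. Leaving out any single array kept the log2 fold change of BMP2 between 0.31 and 0.35. Another BMP2 probe set was under the background level on every array and gave 0.25 (limma, adjusted p = 0.494), and it was 1 of the 6 probe sets under an unadjusted p of 0.05. The dimmest gave -0.042, with overlapping groups.

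BMP4 and BMP5 were not called at either threshold. BMP4 (Entrez Gene 396165), a ligand of ridge maintenance and regression, measured 6.78, 7.42 and 6.52 in FGF2 tissue, against 6.42, 6.4 and 6.5 in PBS tissue. The PBS arrays lay close together, and most of the BMP4 difference came from FGF2 replicate 2, while FGF2 replicate 3 was almost level with the highest PBS array. The log2 fold change was 0.47 ± 0.233 (SE; limma, adjusted p = 0.643). It was 0.21 without FGF2 replicate 2 and 0.66 without FGF2 replicate 3 (limma, adjusted p = 0.395, the lowest of a range up to 0.924), the only alternative in which its brightest probe set was under an unadjusted p of 0.05. The other 2 BMP4 probe sets were under the background level and gave -0.034 and -0.011. The first was counted as separate, although FGF2 replicate 1 and PBS replicate 1 both measured 2.71 after rounding.

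BMP5 (Entrez Gene 396053), a ligand close to BMP7 in sequence and known for its role in cartilage condensations of the mouse, measured 7.38, 8.12 and 8.18 in FGF2 tissue, against 8.32, 7.56 and 8.12 in PBS tissue. The groups overlapped fully, with a low array in each group, FGF2 replicate 1 and PBS replicate 2. The log2 fold change was -0.11 ± 0.297 (SE; limma, adjusted p = 0.818), and its 95% interval of -0.86 to 0.64 left room for a difference either way. It became 0.055 without PBS replicate 1 and 0.15 without FGF2 replicate 1. A dimmer BMP5 probe set measured 4.54, 4.57 and 4.58 in FGF2 tissue and 4.61, 4.61 and 4.79 in PBS tissue, separate groups with a log2 fold change of -0.10 (limma, adjusted p = 0.644). The dimmest BMP5 probe set was under the background level on every array and gave -0.016.

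**Figure D1:**
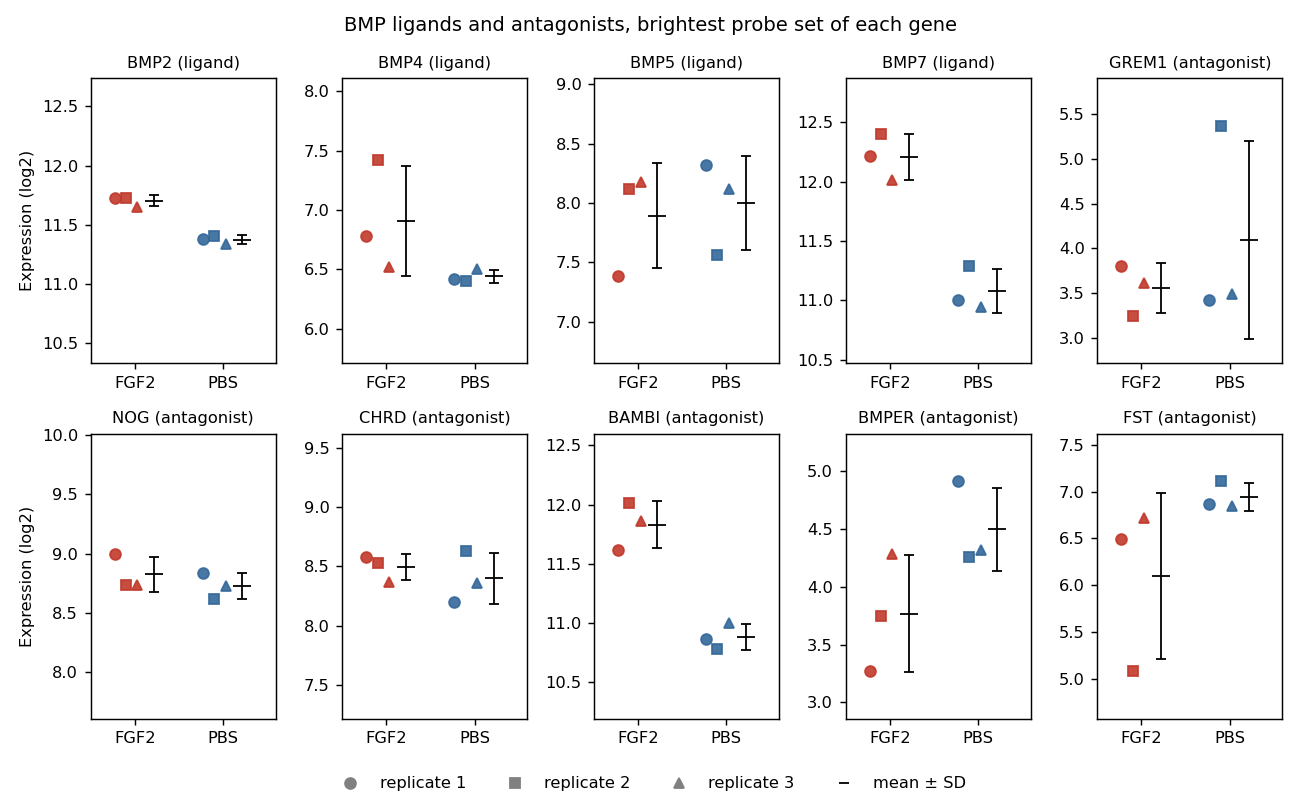
Log2 expression of the brightest probe set of each gene on the 3 FGF2 arrays (red) and 3 PBS arrays (blue), with marker shape for the replicate number and bars for the mean ± SD; each panel has its own vertical range. BMP7, BMP2 and BAMBI separate the groups clearly, FGF2 replicate 2 stands apart for BMP4 (7.42) and FST (5.08), and PBS replicate 2 stands apart for GREM1 (5.37).

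Among the antagonists BAMBI stood higher in FGF2 tissue. BAMBI (Entrez Gene 428413) is a membrane pseudoreceptor that lacks a kinase domain and blocks type I receptors, and it is known in Xenopus and mouse as a gene that BMP signaling itself induces. Its single probe set measured 11.62, 12.01 and 11.86 on the FGF2 arrays, against 10.87, 10.78 and 11.0 on the PBS arrays. All FGF2 values lay above all PBS values by a gap wider than the spread of either group. The difference was 1.93-fold, with a 95% interval of 1.58 to 2.36 (log2 fold change 0.95 ± 0.115 SE; limma, adjusted p = 0.171). BAMBI came to an adjusted p of 0.025 with the variance trend, and its adjusted p ran between 0.025 and 0.48 over the alternatives, with log2 fold changes of 0.86 to 1.06.

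The 5 secreted antagonists did not share this direction. In FGF2 tissue 2 were higher, against 45.6% of all genes, and 3 lower. Their median log2 fold change was -0.53, against -0.013 over all genes, but it was 0.041 without PBS replicate 2, the array on which GREM1 stood apart. With all arrays and the values as deposited, none of the 5 brightest probe sets was under an unadjusted p of 0.05. FST (Entrez Gene 396119) encodes Follistatin, which binds activins tightly and several BMPs. Its brightest probe set measured 6.49, 5.08 and 6.72 in FGF2 tissue, against 6.87, 7.11 and 6.85 in PBS tissue. Every FGF2 array lay below every PBS array, but by far the lowest value was that of FGF2 replicate 2, the array with the highest BMP4. The log2 fold change of FST was -0.84 ± 0.45 (SE; limma, adjusted p = 0.644). Without FGF2 replicate 2 it was -0.33, with a smaller SE of 0.119 (limma, unadjusted p = 0.0447, adjusted p = 0.924). This was the only alternative in which the brightest FST probe set was under an unadjusted p of 0.05. Over the alternatives the adjusted p of FST ran between 0.413 and 0.924. The second FST probe set measured 4.69, 4.32 and 4.81 in FGF2 tissue and 5.05, 4.97 and 4.9 in PBS tissue. Here too the groups did not overlap, and the log2 fold change was -0.37 ± 0.135 (SE; limma, adjusted p = 0.539), the only member probe set that was lower at an unadjusted p under 0.05.

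BMPER and GREM1 were dim and varied between arrays. BMPER (Entrez Gene 420744), the vertebrate Crossveinless-2, binds BMPs and can oppose or favor their signal depending on context. It measured 3.27, 3.75 and 4.28 in FGF2 tissue, against 4.91, 4.26 and 4.32 in PBS tissue. The groups overlapped narrowly, since FGF2 replicate 3 lay just above PBS replicate 2. The log2 fold change was -0.73 ± 0.309 (SE; limma, adjusted p = 0.584), from levels at which FGF2 replicate 1 was under the background level. Without FGF2 replicate 3 it was -0.98 (limma, adjusted p = 0.36, the lowest of a range up to 0.924) and without FGF2 replicate 1 it was -0.48.

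GREM1 (Entrez Gene 395826), the Gremlin that links SHH to the ridge FGFs, measured 3.8, 3.25 and 3.62 in FGF2 tissue, against 3.42, 5.37 and 3.49 in PBS tissue. Apart from PBS replicate 2 the values straddled the background level of 3.566, so this probe set gave little signal in either group. The log2 fold change was -0.53 ± 0.569 (SE; limma, adjusted p = 0.652), with a 95% interval of -1.97 to 0.9. It turned to 0.1 without PBS replicate 2, so its direction rested on that array. A difference in GREM1 was not detectable with these arrays.

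NOG and CHRD were well measured and gave small differences. NOG (Entrez Gene 373912) encodes Noggin, a BMP antagonist of developing cartilage. It measured 9.0, 8.74 and 8.74 in FGF2 tissue, against 8.84, 8.62 and 8.73 in PBS tissue. The log2 fold change was 0.096, with a 95% interval of -0.14 to 0.33 (limma, adjusted p = 0.647). CHRD (Entrez Gene 395828) encodes Chordin, the ligand trap that tolloid proteases cleave. It measured 8.58, 8.53 and 8.37 in FGF2 tissue, against 8.2, 8.63 and 8.36 in PBS tissue. Its log2 fold change was 0.097, with a 95% interval of -0.21 to 0.41 (limma, adjusted p = 0.665). For both genes the groups overlapped, and the intervals leave out differences as large as those measured for BMP7 and BAMBI.

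**Figure D2:**
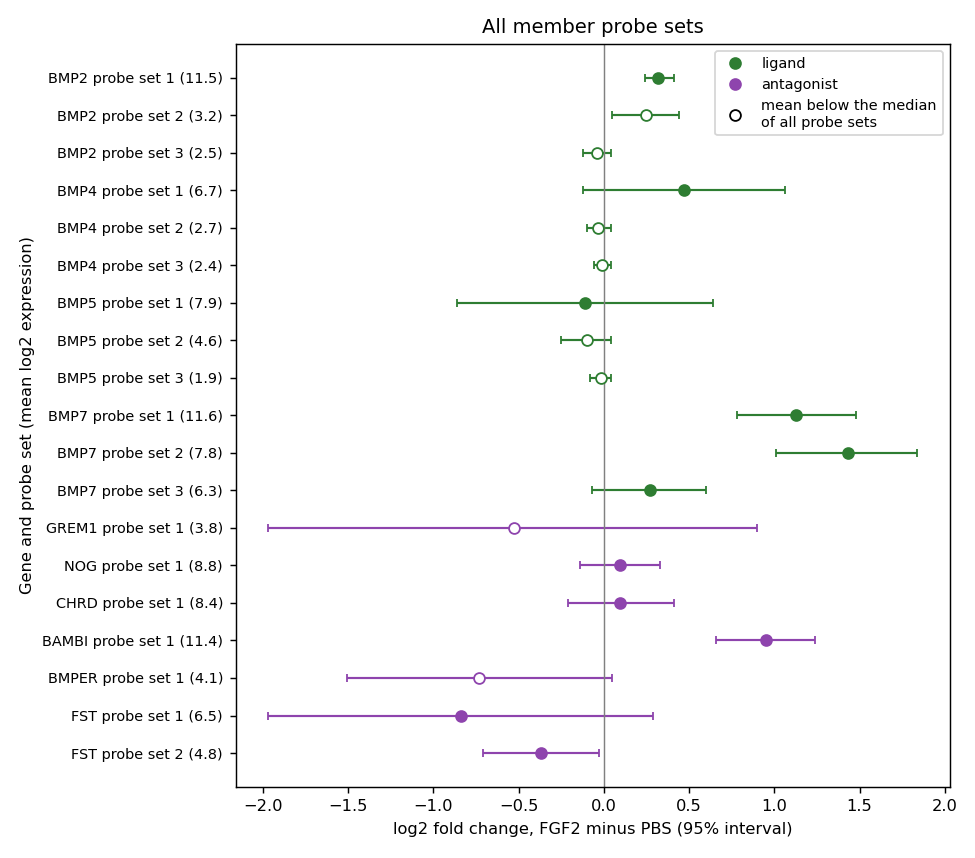
Log2 fold change of FGF2 minus PBS with its 95% interval (limma) for the 19 member probe sets, in green for ligands and purple for antagonists, numbered within a gene from bright to dim with the mean log2 expression in brackets; open circles have a mean below the median of all probe sets. The intervals of BMP7 probe sets 1 and 2, BAMBI and BMP2 probe set 1 lie well above 0, while those of GREM1, FST probe set 1 and BMP5 probe set 1 are wide.

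Ligands were then set against antagonists on each array, by averaging over the genes of a class how far each lay from its PBS mean. The ligand level was 0.3, 0.69 and 0.37 log2 units on the FGF2 arrays, against 0.06, -0.06 and 0 on the PBS arrays. The antagonist level was -0.13, -0.36 and 0.01 on the FGF2 arrays, against -0.07, 0.2 and -0.13 on the PBS arrays. The ligand level did not overlap between the groups, and the antagonist level did. The ligand level minus the antagonist level was 0.43, 1.05 and 0.36 on the FGF2 arrays, against 0.13, -0.26 and 0.13 on the PBS arrays, a mean difference of 0.61. These are descriptions of chosen genes and were not tested. The separation depended on BMP7. Without it the difference between the levels was 0.16, 0.84 and 0.17 on the FGF2 arrays and 0.17, -0.35 and 0.18 on the PBS arrays, which overlapped. Without BAMBI, the 1 antagonist that is not secreted, it was 0.61, 1.35 and 0.55 on the FGF2 arrays and 0.14, -0.32 and 0.18 on the PBS arrays. By gene, 3 of 4 ligands were higher in FGF2 tissue, with a median log2 fold change of 0.4. For the antagonists the count was 3 of 6, with a median of -0.22, which was 0.072 without PBS replicate 2. Over all genes 45.6% were higher, and the median was -0.013.

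**Figure D3:**
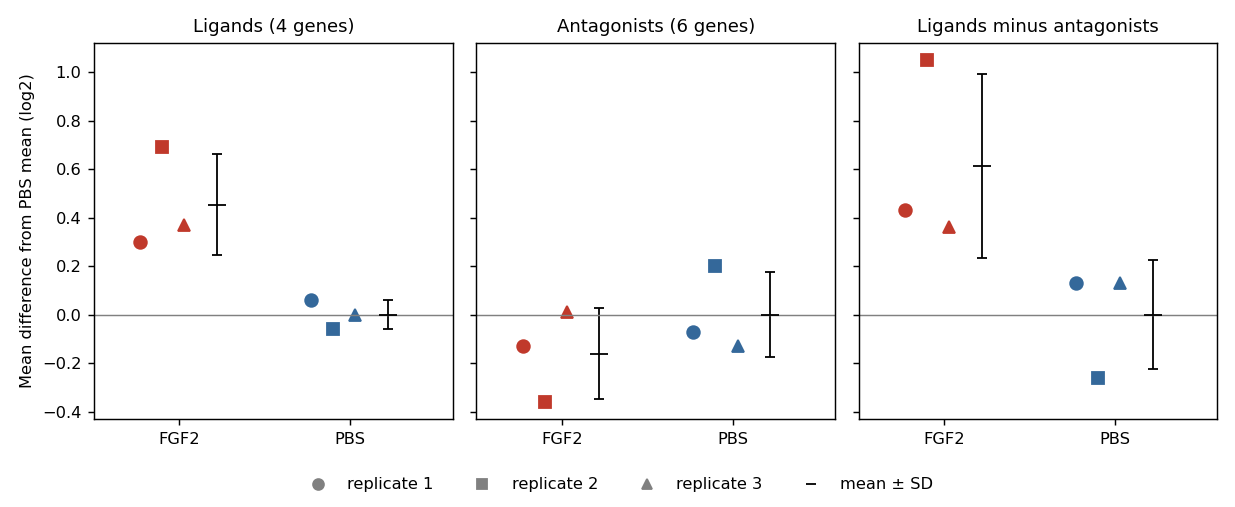
Mean difference from the PBS mean in log2 units over the 4 ligand genes, over the 6 antagonist genes, and the first minus the second, on each FGF2 array (red) and PBS array (blue), with bars for the mean ± SD. The FGF2 arrays lie at 0.3 to 0.69 for ligands, above the PBS arrays, and overlap the PBS arrays for antagonists.

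Several of these genes are also made by cell types whose markers moved between the arrays. Of 7 cartilage markers 6 were lower and 1 higher in FGF2 tissue, where 45.6% of all genes were higher. None of them was under an unadjusted p of 0.05. The log2 of their summed level was 14.85, 14.86 and 15.4 on the FGF2 arrays and 15.84, 14.95 and 15.4 on the PBS arrays. The exception was SOX9, the transcription factor of early cartilage, with a log2 fold change of 0.23. The summed level was highest on PBS replicate 1, as were BMPER and BMP5. It was low on FGF2 replicates 1 and 2 and PBS replicate 2. BMPER followed the order of the summed level over all arrays, with FGF2 replicate 3 and PBS replicate 3 level at 15.4 after rounding. It measured 4.91, 4.26 and 4.32 on the PBS arrays and 3.27, 3.75 and 4.28 on the FGF2 arrays. BMP5 was low on FGF2 replicate 1 and PBS replicate 2 but not on FGF2 replicate 2. Of 8 macrophage markers 8 were higher in FGF2 tissue, 6 of them at an unadjusted p under 0.05, against 45.6% and 7.77% of all genes, and the log2 of their summed level was 11.53 to 11.78 on the FGF2 arrays and 10.81 to 10.97 on the PBS arrays. C1QA, C1QB and C1QC, the chains of complement C1q, were 9.38-fold, 3.41-fold and 3.6-fold higher in FGF2 tissue (limma, adjusted p = 0.304, 0.223 and 0.317). C1QA was under the background level on every PBS array, at 1.75, 3.09 and 3.01, so its fold change is a ratio to background. CD74, the invariant chain of MHC class II, was 1.51-fold higher (limma, adjusted p = 0.0532), and CSF1R, the receptor of macrophage growth factor, and SPI1, a myeloid transcription factor, were 1.44-fold and 1.3-fold higher. The groups were separate for all 6 of these genes, against 16.0% of all genes. These 6 were the ones under an unadjusted p of 0.05, so their separation is not further evidence. The groups overlapped for PTPRC, which was near the background level, and for MARCO, which was under it on every array. Of 8 skeletal muscle markers 7 were lower and 1 higher, where 45.6% of all genes were higher. Of the lower, 3 were at an unadjusted p under 0.05, against 4.59% of all genes. The log2 summed level of the muscle markers was 15.12 to 15.51 on the FGF2 arrays and 15.49 to 15.61 on the PBS arrays. ACTC1, the brightest of them, made up most of this sum. The median distance of the muscle markers from their PBS means was -0.48, -0.72 and -0.14 on the FGF2 arrays. On the PBS arrays it was -0.01, 0.04 and 0.06, so that the groups were separate. The part of cartilage, macrophage and muscle RNA in the differences of the BMP genes was not tested. Ectoderm and ridge tissue could carry BMP2, BMP4 and BMP7. Of 9 markers of it 6 were higher, against 45.6% of all genes, and 1 of them was at an unadjusted p under 0.05, against 7.77%. The median log2 fold change of these markers was 0.061. Their log2 summed level was 12.5 to 12.7 on the FGF2 arrays and 12.46 to 12.56 on the PBS arrays. FGF8 and ESRP1 were under the background level on every array, so these markers cannot report on the ridge itself. The part of ridge RNA in the ligand differences was not tested.

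Further genes of the pathway were read from lists arranged by role. No gene of these lists passed an adjusted p of 0.05. The shares over all genes given beside the counts take in dim genes. The median log2 fold change was -0.021 over all probe sets and 0.029 over those brighter than the median. Under the background level on every array were 4 of 15 extracellular modulators, 2 of 13 target genes, and none of the receptors or SMADs and their regulators. Of the BMP and GDF ligands outside the set, 10 were measured and 6 of them stayed under the background level. In FGF2 tissue 3 of the 10 were higher, against 45.6% of all genes, and 7 lower. BMP3, a ligand that opposes other BMPs, was 1.27-fold higher in FGF2 tissue (limma, adjusted p = 0.388). It was the 1 gene of these 10 under an unadjusted p of 0.05, against 7.77% of all genes that were higher at this threshold. GDF5, a ligand of joint formation, was bright and averaged 12.52 ± 0.15 in FGF2 tissue and 12.5 ± 0.103 in PBS tissue (SD, n = 3 each).

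Of 15 further extracellular modulators, 9 were higher, against 45.6% of all genes, and 6 lower, and 3 of the higher were under an unadjusted p of 0.05, against 7.77% of all genes. CHRDL1, a Chordin-like BMP antagonist, measured 10.2, 10.58 and 10.04 in FGF2 tissue, against 9.3, 9.89 and 9.47 in PBS tissue, a 1.65-fold difference (limma, adjusted p = 0.461). SOSTDC1, which antagonizes BMPs and modulates Wnt signaling, measured 10.55, 10.78 and 10.76 against 10.24, 10.09 and 10.2 and was 1.43-fold higher in FGF2 tissue (limma, adjusted p = 0.233). TLL1, a tolloid protease of the family that cleaves Chordin, was 1.42-fold higher in FGF2 tissue (limma, adjusted p = 0.346). For all 3 genes the groups did not overlap, against 16.0% of all genes. These 3 were named for a small p, so their separation is not further evidence.

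Of 6 receptors, 3 were higher, against 45.6% of all genes, and 3 lower. ACVR2B, a type II receptor for activins and BMPs, was 1.13-fold higher in FGF2 tissue (limma, adjusted p = 0.472). Of 11 SMADs and regulators, 9 were higher in FGF2 tissue, against 45.6% of all genes, and 2 lower. The median over the list was 0.2 on the log2 scale, against -0.013 over all genes. At an unadjusted p under 0.05 there were 2, both higher, against 7.77% of all genes. They were SMAD6, an inhibitory SMAD, at 1.3-fold (limma, adjusted p = 0.494) and SKIL, a corepressor of SMADs, at 1.15-fold (limma, adjusted p = 0.503).

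Genes commonly used as targets of BMP signaling were higher in 9 of 13 cases, against 45.6% of all genes, and lower in 4. Their median difference was 0.14 on the log2 scale, against -0.013 over all genes. Of these 5 were under an unadjusted p of 0.05 and higher in FGF2 tissue, against 7.77% of all genes. MSX1, a homeobox gene of the distal mesenchyme, measured 10.15, 10.64 and 10.09 in FGF2 tissue, against 8.1, 8.22 and 8.2 in PBS tissue (limma, adjusted p = 0.0681). MSX2 measured 11.91, 12.37 and 12.02 against 10.78, 9.97 and 10.83, a 2.98-fold difference (limma, adjusted p = 0.286). DLX5, a homeobox gene of the ridge and distal mesenchyme, was 2.19-fold higher in FGF2 tissue (limma, adjusted p = 0.165). ID1, an inhibitor of basic helix-loop-helix factors and a direct SMAD target in mammalian cells, measured 13.81, 14.12 and 14.09 in FGF2 tissue, against 13.57, 13.62 and 13.61 in PBS tissue, a 1.33-fold difference (limma, adjusted p = 0.346). Of the other ID genes, ID4 was 1.32-fold higher (limma, adjusted p = 0.496). ID2 and ID3 were bright, and their groups overlapped, with log2 fold changes of 0.0082 and 0.14. The MSX and DLX genes also respond to other signals, and the study singled out MSX1, MSX2 and DLX5 on these same arrays.

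**Figure D4:**
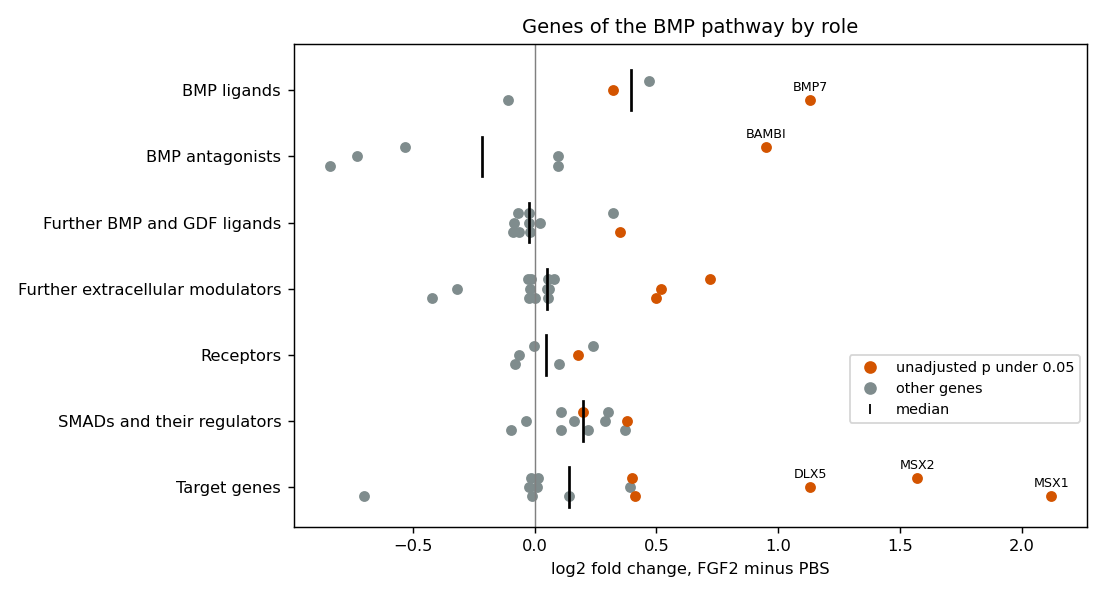
Log2 fold change of FGF2 minus PBS for the brightest probe set of each gene, in rows by role, with orange points for genes under an unadjusted p of 0.05 (limma), grey points for the others and black bars for the medians. The largest positive values are those of MSX1, MSX2, BMP7, DLX5 and BAMBI, and the lowest antagonists are FST and BMPER.

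The genes most like BMP7 and BAMBI across the 6 arrays were looked up among 1959 other named genes. These were brighter than the median and had an SD over the 6 arrays of at least 0.2. BMP2 fell short of that SD and was not a candidate. For BMP7 the nearest candidates were MLLT1, a subunit of transcription elongation complexes (Pearson r = 0.993), NEURL1, a ubiquitin ligase (r = 0.989), and STMN2, a neuronal microtubule regulator (r = 0.986). STMN2 measured 10.93, 10.8 and 10.09 in FGF2 tissue, against 8.22, 8.38 and 7.89 in PBS tissue. After the group means were removed the 3 coefficients were 0.94, 0.83 and 0.79. For BAMBI the nearest were CD9, a tetraspanin (r = 0.996), GALNT9, a glycosyltransferase (r = 0.992), and DACH1, a transcription factor of the distal limb (r = 0.992). DACH1 measured 11.1, 11.46 and 11.21 in FGF2 tissue, against 10.47, 10.43 and 10.49 in PBS tissue. These coefficients describe 6 arrays in 2 separate groups, so any gene that differs between the groups scores high. BMP7 and BAMBI correlated at 0.92 over the 6 arrays but at -0.07 once the group means were removed. BMP2 and BMP7 correlated at 0.99, and at 0.89 with the group means removed. That 0.89 rests on a BMP2 SD of only 0.0453 in FGF2 tissue and 0.0344 in PBS tissue. Other member pairs were nearly as far from 0 with the group means removed, such as BMP5 and BMPER at 0.83 and BMP5 and CHRD at -0.83. BMP4 and FST were at -0.99, and at -0.98 with the group means removed. FGF2 replicate 2 lay farthest from the PBS mean for both genes, at 0.98 for BMP4 and -1.86 for FST. That pool weighs most in both coefficients, which were not computed without it.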

How the data were processed

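RNA from 6 pools, 3 FGF2 and 3 PBS, grouped by the titles in the labels, was hybridized to Affymetrix chicken arrays. The deposited values were used as they are. They are log2 expression values from the RMA procedure of the authors, whose steps are background correction, quantile normalization and a summary over probes. Because no source names the log base, it was read from the range of the values, 0.128 to 15.95. Scanner files were not analysed here. Of 38535 probe sets 96 controls were left out and 38439 tested. The platform annotation gave 27168 of them 1 gene symbol, and the probe set with the highest mean over the arrays stood for a gene. No genome position or sequence was assigned to a probe set here.

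FGF2 was compared with PBS over all tested probe sets in a two-sided moderated test (limma 3.58.1, functions lmFit and eBayes; R 4.3.3), with Benjamini-Hochberg adjustment and a threshold of 0.05. An unadjusted p under 0.05, the threshold of the study's methods, was a second rule. Per the methods the experiment was repeated on separate days, and the p-values measure the spread between these pools. With 3 arrays against 3 a permutation test cannot give a p under 0.1. The number of arrays limits the precision. The fitting step was tested on simulated data.

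The members, lists, tests and alternatives were chosen with earlier results of these data known. The text names all probe sets of the members, up to 4 genes of each pathway list with the smallest p under 0.05, and the 3 genes most like BMP7 and BAMBI; other genes, among them GDF5 and the markers, were picked with their values in view. Alternatives comprised a replicate block, leaving out each array, quantile normalization again, median centring, brighter probe sets only, a variance trend with robust fitting, probe sets of the classes matching several transcripts left out (10468), and averaging all probe sets that a gene has. Leaving out only the 2 classes that can match different genes (s and x) was chosen after seeing the data.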

Additional observations from a re-analysis of the deposited data

How the results depend on the processing

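BMP7, BMP2, BAMBI, BMP4, NOG, BMPER and FST kept their direction in all alternatives that could be run for them, while thresholds, single arrays and the choice of probe sets moved other values. The replicate block, the variance trend and the restriction to brighter probe sets leave the fold change of a probe set as it is, so they could not change a direction. Leaving out probe set classes could change it only for BMP7, since every other member kept its brightest probe set. Averaging probe sets could not change BAMBI, NOG or BMPER, each with a single probe set. The count of member probe sets past an adjusted p of 0.05 was 0, but 3 with the brighter probe sets only and 3 with the variance trend, namely BAMBI and 2 of BMP7; over all probe sets these settings called 40 and 39, against 4. It was 0 to 0 when single arrays were left out, and the count at an unadjusted p under 0.05 ran from 4 to 7, against 6. The ligand median of 0.4 was 0.16 with the mean of each gene's probe sets, which takes in probe sets at background, and 0.26 to 0.51 with each array left out. The antagonist median of -0.22 was 0.097 with the brighter probe sets only, where GREM1 and BMPER could not be run, and -0.37 to 0.072 with each array left out, the highest without PBS replicate 2. The median of the secreted antagonists, -0.53, was -0.82 to 0.041 with each array left out (-0.82 without PBS replicate 3, -0.33 without FGF2 replicate 2 and 0.041 without PBS replicate 2) and 0.096 with the brighter probe sets only. The ligand minus antagonist difference of 0.61 was 0.4 to 0.74 with each array left out, and 0.38 with the brighter probe sets only. With each array left out BMP5 ran from -0.32 to 0.15 (0.055 without PBS replicate 1), CHRD from -0.0009 to 0.21, and GREM1 from -0.87 to 0.1. BMP7 was at 0.27 without the probe sets that match several transcripts. When only the s and x classes were left out its brightest probe set was kept, so its value of 1.13 was fixed in advance.

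The replicate numbers were not used as pairs, since the deviations of same-numbered arrays correlated at -0.246, -0.002 and -0.181 over probe sets. Such correlations show no deviation that same-numbered arrays share over all probe sets. Between differently numbered arrays they ran from -0.188 (FGF2 replicate 3 with PBS replicate 2) to 0.332 (FGF2 replicate 3 with PBS replicate 1). These correlations cannot show which arrays came from the same day. With the replicate number as a block the counts were 0 and 6, as without it. In this balanced design the block cannot change a fold change, so the medians of 0.4 and -0.22 and the difference of 0.61 were fixed in advance. What it changes is the error, with an SE of 0.0484 against 0.138 for BMP7 and 0.0389 against 0.0347 for BMP2 (brightest probe sets). Normalizing quantiles again moved the share of higher probe sets at an unadjusted p under 0.05 to 48.8%, against 62.7%, while BMP7 stayed at 1.13. Low signal limits GREM1, BMPER and the further probe sets of BMP2, BMP4 and BMP5. A planned look at promoter sequences was not run.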
